A study of Drosophila melanogaster with 4 samples.

Results

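Among the FAIRE-seq peaks of pupal wings of Drosophila melanogaster, 943 open regions lay away from gene ends, were called in all 4 libraries and were weaker in wings in which the Osa protein was targeted for degradation. FAIRE-seq recovers DNA that is poor in nucleosomes after crosslinking and phenol extraction, so a peak marks open chromatin. Peaks of the 4 lists were merged where they overlapped by at least 1 bp, which gave 24088 regions, and 7900 of these held a peak in every list. Within each library the 7900 shared regions were ranked by the highest −log10 q value the authors' peak caller gave in the region, and the rank was written as a percentile from 0 (weakest) to 100 (strongest). A region was called weaker when both control percentiles were above both Osa-deGrad percentiles, and distal when the summit of its strongest peak lay more than 500 bp from either end of any annotated gene. Of the 7900 shared regions 4005 were distal, and 943 of the 4005 met both conditions. The regions were thus selected on these −log10 q ranks of the same 4 libraries, so the ranks below are a description and carry no test. The mirrored set, distal regions with both Osa-deGrad percentiles above both control percentiles (called stronger), held 563 regions.

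Osa is the ARID-domain subunit that defines the BAP form of the Brahma complex, the fly SWI/SNF nucleosome remodeler, which slides or evicts nucleosomes with the energy of ATP. Open regions far from gene ends include many enhancers, stretches of DNA bound by transcription factors that raise the transcription of a gene which can lie many kb away. In the pupal wing such elements direct genes for patterning, vein and intervein fate, actin-rich wing hairs and bristles, and cuticle.

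Each of the 2 genotypes was represented by 2 libraries, named here Osa-deGrad 1 and 2 and control 1 and 2. All were made from wings of female pupae homozygous for osa-GFP and carrying UAS-Nslmb-vhhGFP, the deGrad transgene, an F-box fragment joined to a nanobody against GFP that sends GFP-tagged protein for degradation. The Osa-deGrad wings also carried nub-GAL4, which drives the transgene in the developing wing, and the control wings carried no driver. Per the labels' protocols each library held 40 wings of pupae aged 24 to 36 h after puparium formation, from larvae raised at 23 °C and shifted to 29 °C at the wandering stage. A FAIRE signal of whole wings cannot tell fewer cells with an open region from a less open region in each cell, and the amount of Osa protein left was not measured in these files. The labels do not say whether the 2 libraries of a genotype came from separate crosses, so their difference may be technical.

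The lists held 13953 to 18007 peaks, and the shorter list of each genotype was its replicate 1. Read counts are unknown from peak lists. Around wing-defining genes, shared regions within 5 kb numbered 4 at vg, 4 at sd, 5 at nub, 2 at ap and 7 at bs. There were 0 at sna, eve and the hemocyte gene Hml, 3 at the glial gene repo and 2 at the neuronal gene elav. These counts thus do not set every wing gene apart from genes of other cells. Open chromatin at a gene does not measure its transcription.

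Weaker distal regions covered a wide range of control signal, and 79 of the 943 ranked above the 90th percentile in both controls. Their median percentile was 69.4 in control 1 and 64.0 in control 2, and 28.1 in Osa-deGrad 1 and 27.1 in Osa-deGrad 2. All 4005 distal regions had medians of 56.2 and 54.7 in the controls and 51.8 and 45.2 in Osa-deGrad. The deposited fold of a peak is the authors' ratio of its summit to the caller's background estimate, whose source is not given. Its median was 7.86 and 7.97 for the weaker regions in the controls and 4.99 and 4.88 in Osa-deGrad. For all distal regions the median fold was 6.74 and 7.23 in the controls and 6.30 and 5.71 in Osa-deGrad. Ranked by this fold instead, 872 of the 943 (92.5%) still had both controls above both Osa-deGrad libraries. These folds come from the same peaks as the ranks and are no separate evidence.

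The size of the separation varied widely. The rank gap, the lower control percentile minus the higher Osa-deGrad percentile, ran from 0.00633 to 78.1 percentile points with a median of 10.9. A gap over 20 points was found in 236 regions, over 40 in 63, and over 60 in 11. Of the 943 regions, 206 lay above the 50th percentile in both controls and below it in both Osa-deGrad libraries, and 126 lay below the 10th percentile in both Osa-deGrad libraries. The median difference between replicates of the weaker regions was 10.8 points in the controls and 9.41 points in Osa-deGrad. Over all distal shared regions it was larger, 17.1 and 14.4 points, and the rule favours regions whose replicates lie close together. Many gaps were thus small beside the replicate spread. In 324 regions (34.4%) the gap exceeded the larger of the 2 replicate differences of the same region, against 152 (27.0%) of the 563 stronger ones.

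At the threshold the regions just inside and just outside could not be told apart. The last 3 inside had gaps of 0.0127 points within CG32700, 0.0127 near scro and 0.00633 within scny. The first 3 outside had gaps of 0 near scro, -0.00633 within NK7.1 and -0.0506 within Moe. Both regions near scro, a homeobox gene, were among the strongest peaks of every library.

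**Figure D1:**
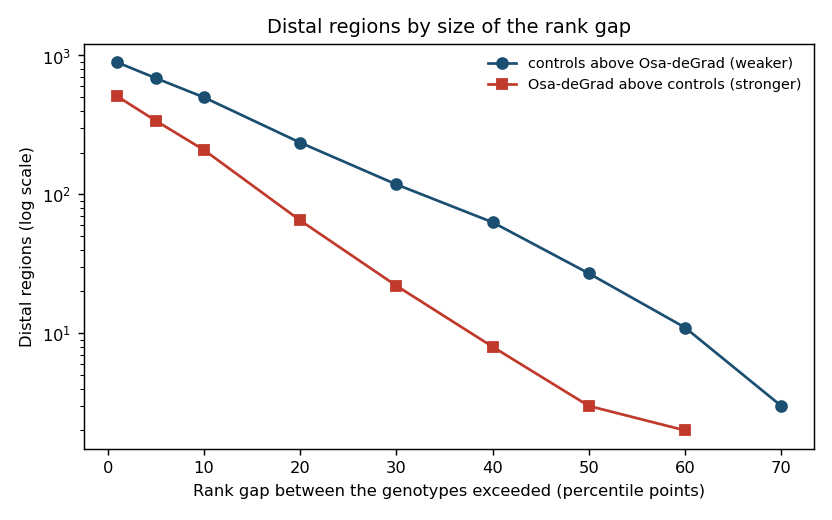
Number of distal shared regions (log scale) whose rank gap exceeds the value on the horizontal axis, in percentile points, for regions weaker (blue circles) and stronger (red squares) in Osa-deGrad wings. The weaker set is larger at every gap shown, with 236 against 65 regions over 20 points and 27 against 3 over 50 points. With ranks among distal regions alone the sets are near equal over 10 points (339 and 335). In that setting they number 147 and 126 over 20 points and 16 and 3 over 50. Over 70 points there were 0 stronger regions, and that value is not drawn on the log axis.

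Whether distal regions were called weaker more often than other regions depended on what they were ranked against. Over all 7900 shared regions, 17.6% were called weaker and 18% stronger. Among the 4005 distal ones the shares were 23.5% and 14.1%, and among the 3895 regions at gene ends 11.4% and 22.1%. A percentile is relative, so a region can lose rank because others gain. When the 4005 distal regions were ranked among themselves, a setting chosen after seeing the data, 721 were weaker (18%) and 787 stronger (19.7%), and 720 of the 943 regions kept their call. In the total count, the excess of weaker over stronger distal regions was thus present against gene-end regions and absent among distal regions alone. At larger gaps weaker regions still outnumbered stronger ones in that setting, with 147 and 126 over 20 points and 70 and 39 over 30. Over 40 points it gave 31 weaker and 13 stronger regions, where the ranks among all shared regions gave 63 and 8. Over 50 points the counts were 16 and 3 against 27 and 3. None of these splits was tested.

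The share of weaker regions was not the same at all distances beyond the 500 bp limit. Between 500 and 1000 bp from a gene end, 133 of 812 shared regions were weaker (16.4%, 95% Wilson interval 14.0 to 19.1, counting error only). It was 21.5% (18.7 to 24.6) of 741 regions at 1000 to 2000 bp, 26.3% (23.7 to 29.0) of 1053 at 2000 to 5000 bp and 28.8% (25.6 to 32.2) of 713 at 5000 to 10000 bp. Farther out it was 25.7% (22.0 to 29.9) of 470 at 10000 to 20000 bp and 22.2% (17.2 to 28.2) of 216 beyond 20000 bp. The stronger share ran the other way over the first bins, from 19.5% at 500 to 1000 bp to 10.7% at 5000 to 10000 bp. With ranks among distal regions alone the weaker share was 11.1% (9.11 to 13.4) at 500 to 1000 bp and 22.6% (19.7 to 25.8) at 5000 to 10000 bp. The rise up to 10000 bp was thus also seen within the distal set. Farther out the weaker share in that setting was lower, 19.8% at 10000 to 20000 bp, where 21.1% were stronger. Beyond 20000 bp it was 19.0%, with 16.2% stronger. The median distance was 3808 bp for weaker, 2404 bp for stronger and 3012 bp for all distal regions.

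**Figure D2:**
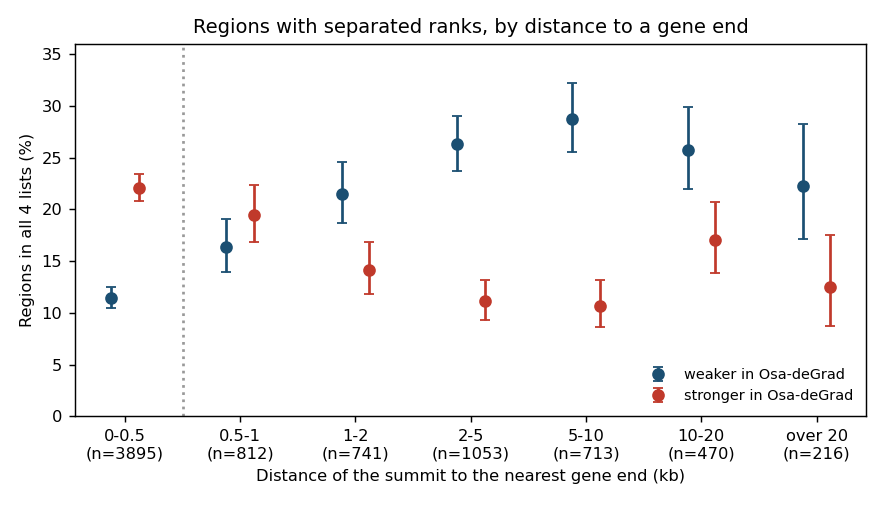
Share of regions in all 4 lists (percent, with 95% Wilson intervals that cover counting error only) that were weaker (blue) or stronger (red) in Osa-deGrad wings, by distance of the summit from the nearest gene end in kb; n is the number of shared regions per bin and the dotted line marks the 500 bp limit. The weaker share is 11.4% at gene ends and 28.8% at 5 to 10 kb, where the stronger share is 10.7%. With ranks among distal regions alone the weaker share is below the stronger one at 500 to 1000 bp (11.1% against 26.8%). In that setting it is above it at 5 to 10 kb (22.6% against 15.99%) and again below it at 10000 to 20000 bp (19.8% against 21.1%).

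The share within genes was similar in weaker, stronger and all distal regions, a comparison that was not tested. Of the 943, 718 (76.1%, Wilson interval 73.3 to 78.8) had their summit within a protein-coding gene, against 76.6% of stronger and 78.1% of all distal regions. Another 203 lay in no annotated gene and 22 in non-coding genes only. The annotation table gives gene ends without exons, so exonic and intronic positions were not separated. By chromosome arm, 23.8% of distal shared regions were weaker on 2L, 26.3% on 2R, 24.1% on 3L, 24.1% on 3R and 20.3% on X. The driver is an insertion at nub on 2L that the control wings lack, so an effect of that insertion and Osa loss cannot be told apart at this locus. Within 5 kb of nub 2 of the 5 shared regions were weaker, and a further pair of weaker regions lay between genes, 8904 and 11337 bp from it. The strongest-peak summit was taken from control 2 in 838 of the weaker regions and from control 1 in 105, and when all 4 libraries' summits had to be distal, 918 regions remained. In 743 of the 943 regions each library held exactly 1 peak. Peaks covered a median of 387 and 470 bp of a weaker region in the controls and 306 and 378 bp in Osa-deGrad.

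The 12 regions with the largest gap had every control percentile above 68 and every Osa-deGrad percentile below 27, and each gap exceeded the replicate differences of its own region. The largest gap, 78.1 points, was found between genes on 3R at 13542698 to 13543627 (dm6), 545 bp from CG31337. It ranked at 90.4 and 86.1 in the controls and at 8.03 and 0.924 in Osa-deGrad, with an authors' fold of 11.5 and 10.7 against 3.99 and 2.84. This region was built from 6 peaks, more than 1 per library, with summits up to 439 bp apart. Inside heca, the headcase gene, a region on 3R at 30295839 to 30296753 ranked at 75.3 and 77.4 in the controls and at 1.35 and 2.22 in Osa-deGrad. Another weaker region of heca, at 30339408 to 30340144, ranked at 39.5 and 32.0 against 4.94 and 4.32.

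Within sn, which encodes Fascin, the actin-bundling protein of bristles and hairs, the region on X at 7983050 to 7983846 ranked at 74.3 and 75.9 in the controls and at 11.1 and 7.81 in Osa-deGrad. Within Fhos, a formin gene whose product assembles actin filaments, a region on 3L at 8781696 to 8782079 ranked at 76.0 and 83.7 against 6.66 and 14.6. In both genes the replicates lay within 8 points of each other. Tsp, the thrombospondin gene, whose product binds integrins in the extracellular matrix, held a region on 2L at 6693485 to 6693898 at 85.2 and 71.3 in the controls against 3.35 and 3.23. Rab23 encodes a small GTPase that acts in the planar polarity of wing hairs, and its region on 3R at 5683223 to 5683769 ranked at 90.6 and 83.9 against 13.3 and 23.0. The 4 libraries of each of these genes separated by at least 60.9 points.

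A region in lab, a Hox gene of the head, on 3R at 6665094 to 6665376 ranked at 84.1 and 84.1 in the controls and at 25.9 and 11.0 in Osa-deGrad. Near ich, a zinc finger gene known from tracheal tubes, the region on 3R at 8947565 to 8948147 ranked at 92.4 and 82.3 against 20.4 and 13.8. Both were above the 82nd percentile in the controls and below the 26th in Osa-deGrad. Within stx, which encodes Stuxnet, a regulator of Polycomb stability, the region on X at 10730405 to 10730915 ranked at 78.1 and 68.8 against 3.27 and 6.08. The remaining regions of the 12 lay in genes known here by number only. In CG10348 (2L, 18720103 to 18720734) the control percentiles were 95.5 and 74.6 and the Osa-deGrad percentiles 2.25 and 1.67, and in CG6040 (3R, 19119533 to 19120066) they were 95.7 and 89.6 against 16.2 and 26.0. The region of CG9265 (2L, 21066793 to 21067538) stood at 77.8 and 79.0 against 16.9 and 13.0.

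**Figure D3:**
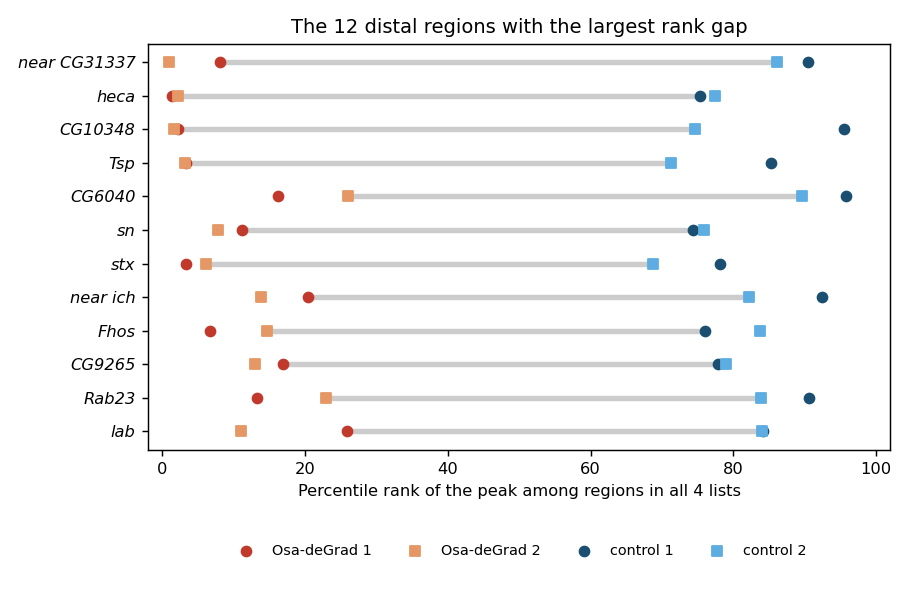
Percentile rank in each library (horizontal axis, among regions in all 4 lists) of the 12 weaker distal regions with the largest rank gap, named by host gene or, where the region lies between genes, by the nearest gene. Grey bars span the gap, from 78.1 points near CG31337 to 58.2 points in lab; all control points lie to the right of all Osa-deGrad points, which the choice of regions fixes.

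The weaker regions with the highest control signal had small gaps. A region 50937 bp from scro ranked at 99.987 in both controls and 99.975 in both Osa-deGrad libraries. The region in CG32700 ranked at 99.962 and 99.949 against 99.937 and 99.937, and that in Sdb, a gene named for acting downstream of blistered, between 99.6 and 99.8. A region on 3L at 5860201 to 5861517, 10913 bp from CG5568, ranked at 99.5 and 99.7 in the controls and at 94.6 and 91.8 in Osa-deGrad. In nkd, an inducible inhibitor of Wingless signalling, the percentiles were 98.9 and 98.6 against 95.9 and 94.2 (3L, 19041857 to 19042988). SNF4Agamma, the gamma subunit gene of AMP-activated kinase, had 99.3 and 97.4 against 95.6 and 94.1. Near tx, the bHLH gene also called delilah, Osa-deGrad 1 at 71.6 lay far from Osa-deGrad 2 at 93.9, with controls at 98.9 and 97.8. The region near mtSSB differed by a gap of 0.247 points.

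Some genes held several weaker regions. The 718 regions within protein-coding genes lay in 552 genes, of which 141 held at least 2 weaker regions, 47 at least 3 and 11 at least 4. For stronger regions 76 genes held at least 2, 16 at least 3 and 3 at least 4, out of a smaller set. Long genes hold more regions, and the median length of a host of a weaker region was 22341 bp against 14310 bp for all genes with a distal shared region. Overlapping host genes were each counted. Of the 141 genes with at least 2 weaker regions, 84 held no stronger region and 57 held both kinds. Only 14.1% of all distal regions were stronger, so a gene with few distal regions can hold none without being unusual.

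The actin genes sn and f were 2 of the 11. In sn 4 of 8 distal shared regions were weaker and 1 was stronger. Besides the region given above, the weaker ones ranked at 62.9 and 40.7 in the controls against 10.7 and 16.9 (X, 7976347 to 7976721), at 94.0 and 69.1 against 35.6 and 56.1 (7978343 to 7979781) and at 80.7 and 94.4 against 62.0 and 78.9 (7976858 to 7978146). The last had a gap of 1.86 points and was not weaker under 3 of the other settings. In f, which encodes the Forked actin-bundling protein of bristles and hairs, 4 of 11 were weaker and 1 stronger. There the region on X at 17237673 to 17237935 ranked at 87.7 and 67.0 in the controls and at 37.2 and 17.9 in Osa-deGrad, and that at 17275178 to 17275624 at 64.9 and 24.3 against 7.92 and 0.81. In the latter and in the remaining pair of weaker f regions, replicates differed by 40.6 to 44.8 points in 1 genotype or the other, more than their gaps.

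The other genes with at least 4 weaker regions had 5 of 16 at mam (a Notch coactivator), 4 of 10 at mgl (the endocytic receptor Megalin), 4 of 14 at fru, 4 of 5 at CG12075, 4 of 11 at mtgo and 4 of 6 at Shrm (Shroom, an organiser of apical actomyosin). The count was also 4 of 6 at Btk (a Tec-family kinase), 4 of 10 at grh (Grainyhead, an epidermal transcription factor) and 4 of 16 at Eip74EF (an ecdysone-induced ETS factor). Over all distal regions 23.5% were weaker. Genes with many distal regions, such as Eip74EF, fru and mam, can reach a count of 4 at a share near that. No stronger region lay in CG12075, Shrm or Btk, where few distal regions were left that were not weaker, and the other 6 held 1 to 3. Median gaps ran from 7.37 points at Btk to 15.8 at mgl. The largest single gaps were 35.2 points at fru (3R, 18495571 to 18496445) and 31.2 at mgl (X, 9468700 to 9468941). In Eip74EF every gap was at most 10.03 points.

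**Figure D4:**
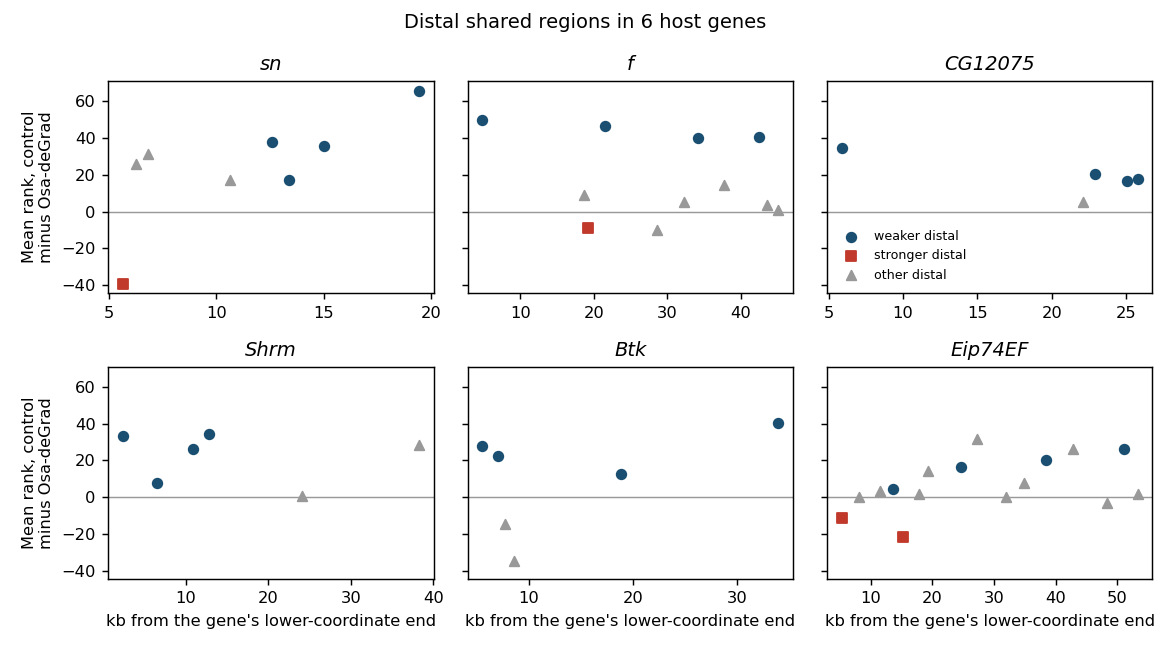
Difference of the mean percentile rank, control minus Osa-deGrad, for each distal shared region of 6 host genes, plotted by distance in kb from the end of the gene with the lower coordinate. Blue circles mark weaker, red squares stronger and grey triangles other regions; weaker regions number 4 in each gene, and in f their mean differences lie between 40.07 and 49.8 points.

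Regions at the ends of the host genes were called weaker or stronger about as often as gene-end regions in general. Of the 552 hosts, 375 had a shared region within 500 bp of an end, 434 regions in all. Of these, 56 were weaker (12.9%) and 99 stronger (22.8%), close to the 11.4% and 22.1% of all gene-end regions. For the 141 genes with at least 2 weaker distal regions the shares were 11.2% and 24.1% of 116 regions. Hosts of a stronger distal region had similar shares, 13.2% weaker and 23.5% stronger of 243 end regions.

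The weaker regions were also sorted by what their genes do, with a region counted for a gene when it lay within the gene or had its nearest protein-coding gene end there. The share of weaker regions at most lists lay near the 23.5% of all distal regions, and each Wilson interval in the plot of gene lists includes that value. Genes for cuticle, hair and wing matrix had 21 weaker and 10 stronger of 69 distal shared regions (30.4%, interval 20.8 to 42.1), in 11 genes. Counted by the nearest protein-coding gene end alone, the same list had 7 weaker and 6 stronger of 38 (18.4%, interval 9.22 to 33.4). The median gap of the 21 weaker regions was 15.8 points, and that of the 7 was 30.1, beside 10.9 over all weaker regions. Beside sn and f, the members were led by shot, the spectraplakin that links actin to microtubules, at 60.6 and 63.7 in the controls against 8.54 and 20.4 (2R, 13915656 to 13915990). Then came sha, a gene needed for wing hair outgrowth, at 78.2 and 57.9 against 3.62 and 22.0 (2R, 11329795 to 11330368). The planar polarity genes stan (Flamingo), pk (Prickle) and fz (Frizzled) had largest gaps of 30.1, 23.5 and 17.4 points. In the pk region the controls, at 48.7 and 90.8, differed by more than the gap. With ranks among distal regions alone this list had 16 weaker of 69 (23.2%) beside the 18% of all distal regions.

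Wing selector and patterning genes had 32 weaker and 17 stronger of 113 distal shared regions (28.3%, interval 20.8 to 37.2), with a median gap of 15.8 points. The largest gap, 48.3 points, lay 6268 bp from en, the posterior compartment homeobox gene, on 2R at 11534016 to 11534745, with percentiles of 60.9 and 77.0 in the controls and 12.7 and 3.83 in Osa-deGrad. Near its sister gene inv, a region 2267 bp away ranked at 94.5 and 69.0 against 29.2 and 5.16 (2R, 11471956 to 11472449). Within Dll, the homeobox gene of distal appendages, a region ranked at 73.7 and 69.5 against 26.8 and 19.0 (2R, 24831053 to 24831661). At bs, the serum response factor of intervein cells, a pair of regions ranked at 46.2 and 42.3 against 20.4 and 9.41 and at 27.0 and 26.1 against 2.37 and 6.18. The replicates of these bs regions differed by at most 11.01 and 3.80 points, less than their gaps of 21.9 and 19.9. In vg, which specifies the wing field with sd, the gap was 4.26 points, since control 1 at 52.3 lay far above control 2 at 13.3. Ranked among distal regions alone, 25 of the 113 were weaker (22.1%) and 23 stronger.

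Signalling genes had 33 weaker and 10 stronger of 126 distal shared regions (26.2%, interval 19.3 to 34.5, and 7.94%). Among the matched ligand genes, the region with the largest gap lay in Ser, a Notch ligand gene. It lay on 3R at 27180699 to 27181621, with 64.7 and 61.3 in the controls against 4.04 and 8.59. The Notch ligand gene Dl did not match the gene annotation and was not counted. The region 2108 bp from wg, the Wnt ligand of the wing margin, ranked at 70.2 and 91.4 against 20.4 and 30.7 (2L, 7318220 to 7318670). In dpp, the BMP ligand gene, percentiles of 35.9 and 64.1 stood against 4.08 and 0.481 (2L, 2430163 to 2430790). Other ligand genes of the list had smaller gaps, 22.6 and 6.56 points at a pair of regions in vn, which encodes an EGF receptor ligand, and 6.17 points in hh, the Hedgehog gene. Of the coreceptors and receptors, dally, a glypican that carries Wingless and Dpp, had a region at 67.8 and 50.7 against 1.15 and 7.75 (3L, 8851349 to 8851743). At Egfr and N the largest gaps were 16.8 and 16.1 points. Ranked among distal regions alone, the list had 24 weaker and 16 stronger regions.

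Ecdysone response genes had 29 weaker and 19 stronger of 137 (21.2%, interval 15.2 to 28.7), with a median gap of 9.61 points. The largest gap was in the nuclear receptor gene Eip78C on 3L at 21261515 to 21262126, with 90.6 and 66.7 in the controls against 11.4 and 21.2. At 5612 bp from Blimp-1, a repressor that times the pupal response, a region ranked at 72.1 and 79.4 against 13.2 and 34.7. In Eip93F, the factor that opens late pupal enhancers, control 1 at 91.1 stood far from control 2 at 28.7, with Osa-deGrad at 0.0759 and 6.08. EcR, the receptor gene itself, had a pair of weaker regions with gaps of 12.3 and 9.61 points. Genes for adhesion and integrins had 14 weaker and 7 stronger of 60 (23.3%, interval 14.4 to 35.4), led by the αPS2 integrin gene if at 63.3 and 76.2 against 5.54 and 1.35 (X, 16765228 to 16765723). Sensory organ genes had 7 weaker and 5 stronger of 32 (21.9%), led by the GATA cofactor gene ush at 69.3 and 30.4 against 4.34 and 3.89. SWI/SNF subunit genes had 0 weaker and 1 stronger of 5 distal shared regions, a number that allows no comparison. Ranked among distal regions alone, more regions were stronger than weaker at the ecdysone response genes (24 weaker, 29 stronger) and the sensory organ genes (4 and 7). The adhesion and integrin genes had 11 of each. Over all distal regions that setting also gave fewer weaker (18%) than stronger (19.7%) regions.

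**Figure D5:**
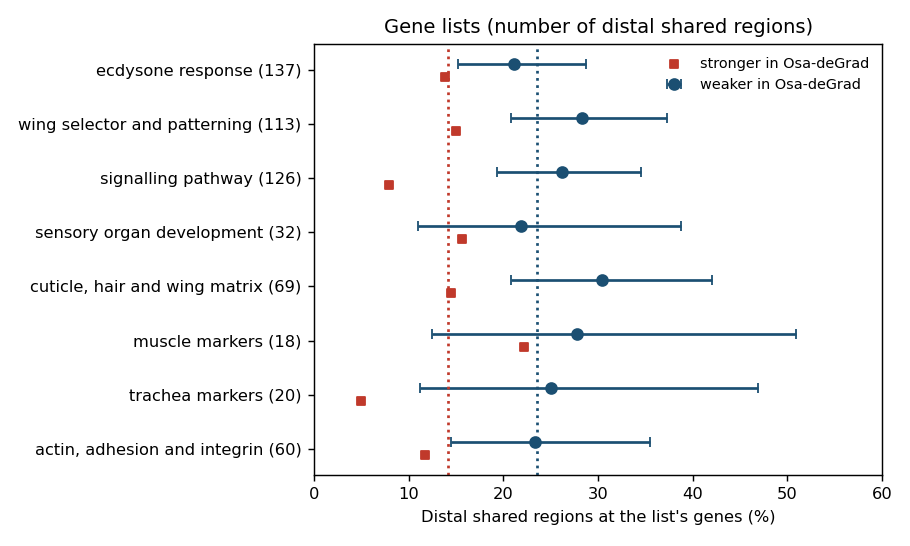
Share of the distal shared regions at the genes of each list that were weaker (blue circles, with 95% Wilson intervals for counting error) or stronger (red squares) in Osa-deGrad wings, for the lists with at least 10 such regions, whose number is in brackets. Dotted lines mark the shares over all distal regions, 23.5% and 14.1%; the interval of every list shown includes the first. With ranks among distal regions alone the order reverses over all distal regions (18% weaker, 19.7% stronger). It also reverses for the ecdysone response, sensory organ and muscle lists shown.

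Markers of other tissues were counted beside these lists. Tracheal genes had 5 weaker and 1 stronger of 20 distal shared regions (25% weaker, Wilson interval 11.2 to 46.9). Over all distal regions the shares were 23.5% weaker and 14.1% stronger, and the intervals of the lists below include the former. In trh, which specifies tracheal cells, the region on 3L at 385402 to 385802 ranked at 60.7 and 72.9 in the controls against 0.348 and 2.52. A pair of intergenic regions assigned to vvl, a POU-domain gene of trachea and wing veins, lay 29362 and 57165 bp from it. Muscle genes had 5 weaker and 4 stronger of 18 (27.8% weaker, interval 12.5 to 50.9). Their largest gap lay where twi overlaps CG42741, with 79.8 and 98.5 against 38.9 and 5.89. With ranks among distal regions alone the muscle genes had 3 weaker and 6 stronger and the tracheal genes 4 and 2. In that setting 18% of all distal regions were weaker and 19.7% stronger. Hemocyte genes had 2 weaker, at ush and lz, and 1 stronger of 7 (28.6% weaker, interval 8.22 to 64.1). Genes of neurons and glia had 0 weaker and 0 stronger of 3. With ranks among distal regions alone these became 1 weaker and 3 stronger, and 0 weaker and 1 stronger. A part of a changed number of tracheal or other cells in these regions was not tested.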

How the data were processed

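The files were 1 narrowPeak list per library on dm6, so peaks were called per library. Tools named in the submitters' processing notes, with no role stated, are the peak caller MACS2 2.1.2, the aligner Bowtie2 2.3.4.1, and also deepTools 2.4.1, Picard 2.2.4 and SAMtools 1.9. How MACS2 was run, and against which control, is not given in the sources used here. The deposited lists give each peak's −log10 q value, its fold enrichment (a ratio over local background) and its summit offset. Depth is unknown, and −log10 q rises with depth, so values were ranked within a library only.

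Merging, ranking and distances were computed in Python 3.11.15 with pandas 2.3.3 and checked on simulated lists. Gene ends, host genes and names came from a RefSeq table whose assembly, Release 6 plus ISO1 MT, is the one dm6 is built on. Of 293 symbols written in 11 gene lists, 288 matched, and phm, B, Dl, d and Dat did not and were left out. The sensory organ symbol chn was matched to VAChT, a different gene, so chn itself was not counted. Coordinates are 1-based. The regions and gene lists were chosen with earlier results of these data known. Text names the 12 regions with the largest gap, the 8 with the highest mean control rank, hosts with at least 4 weaker regions (the rule stopped at 8, and 3 ties were added) and the largest gap per list; others were chosen after their values were seen. Regions are not replicates and the rule used the contrast, so no p-value is given. The design text of the series describes CUT&RUN on larval discs; the samples were taken as labelled, FAIRE-seq of pupal wings. Alternatives covered the ranking value, distance, summit, peak threshold, overlap, list length, pairing and each library left out.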

Additional observations from a re-analysis of the deposited data

How the results depend on the processing

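Read depth is not known from these lists, the 2 libraries of a genotype give a spread with little precision, and a region must pass the caller's threshold in every library, so regions lost below it in Osa-deGrad are not counted here. Over 16 alternatives, 45 of 64 summary values stayed within the allowed spread and 19 moved. For the count that spread was a fixed factor, and for the others a 95% interval over regions, which are not replicates. A value that stayed can go with a changed balance: with ranks among distal regions 721 were weaker, which counted as unchanged, and 787 stronger. Single gaps were judged against the mean replicate standard deviation of the region. Of 1033 gaps of 71 named regions, 831 stayed, 180 moved and 22 changed sign. With a −log10 q minimum of 5 and 10, which leaves fewer peaks, 614 and 273 regions were weaker and 385 and 212 stronger. With 1 library left out, which loosens the rule, the count ran from 1547 (without Osa-deGrad 2; 1318 stronger) to 2005 (without Osa-deGrad 1), and it was 1882 and 1767 without control 1 and control 2. The median gap then ran from 12.6 to 15.98 points, the median distance from 3348 to 3796 bp and the share within genes from 76.9% to 79.4%. The median gap was 8.999 points with ranks among all peaks of the own list and 9.24 with ranks among distal regions. The median distance was 3129 bp with a 250 bp limit and 4682.5 bp with a 1000 bp limit, where 78.9% lay within genes. The replicate numbers were not shown to pair the libraries (correlation of same-number deviations 0.116 over 7900 regions, 2 pairs); with the number as a block, which asks only for control above Osa-deGrad within each number, 1363 regions were weaker and 914 stronger.

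Gaps that changed sign were below 0 as follows, and the cause was not tested. With ranks among distal regions alone they were -4.09 points at Btk, -0.599 at Eip74EF, -2.12 at Shrm, -2.50 at f, -0.175 and -0.437 at 2 fru regions, -0.911 at grh, -0.949 at mam, -0.674 at mgl, -4.18 at mtgo, -0.400 near mtSSB and -4.23 at sn. Ranked by fold, they were -6.56 at CG12075, -0.0127 at CG32700, -5.67 at fru and -2.42 at mam. With ranks among all peaks of the own list, they were -0.337 at Shrm, -1.92 at mtgo, -0.0418 near mtSSB and -1.41 at sn. The −log10 q minimum of 5 gave -1.05 at fru, and that of 10 gave -0.568 at sn.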

Other observations

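Weaker distal regions were set beside regions found in 1 genotype only. Within 5000 bp of the summit, 165 of the 943 weaker regions (17.5%) had a region called in both controls and neither Osa-deGrad list, against 10.5% of the stronger and 14.4% of all distal shared regions. A region called in both Osa-deGrad lists and neither control lay that near to 52 weaker regions (5.51%), against 6.04% and 6.27%. Both sides use the same 4 libraries, so this is a description and was not tested. Within 10000 bp, 34.7% of weaker regions had another weaker region and 19.0% a stronger one, against 31.8% and 20.5% for all distal shared regions. At Glut4EF and the overlapping CG46467, 3 of 8 distal shared regions were weaker and 0 stronger, the largest gap being 55.9 points (3R, 9948624 to 9949179). In CG32365 all 3 distal shared regions were weaker. Over all distal shared regions 23.5% were weaker, and so few regions per gene allow no comparison with that share.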
